A study of Mus musculus with 7 samples.

Results

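The 10 genes described here encode the GATA factors of blood cells and the proteins they work with in the erythroid lineage: Gata1, Gata2, Zfpm1, Tal1, Lmo2, Ldb1, Lyl1, Gfi1b, Runx1 and Cbfa2t3. They were chosen by name, as the rows of the value table that carry exactly 1 gene symbol. Each of the 10 had 1 such probeset and 0 probesets shared with another gene, so none had to be chosen over another, and they are 10 of 22180 genes measured this way. All 10 also passed a filter that keeps probesets above 5 on at least 3 arrays.

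Total RNA from G1E cells was hybridised to 7 arrays of the Affymetrix Mouse Gene 2.0 ST type. G1E is a mouse erythroid cell line that was derived from cells with a disrupted Gata1 gene, so control and deletion cells share the lack of GATA1 and differ in Lockd. The control group has 3 arrays of cells labelled Lockd WT, and the deletion group has 4 arrays of cells from which CRISPR/Cas9 removed Lockd, a gene for a long non-coding RNA that neighbours Cdkn1b. Both groups come from this single line, and the sources used here do not say whether each array stands for its own clone or culture, so a p-value measures the spread between these arrays, which may be technical.

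GATA factors are zinc finger proteins that bind the letters GATA in DNA. In erythroid precursors GATA1 and GATA2 sit on chromatin together with the helix-loop-helix proteins TAL1 or LYL1, the LIM-only protein LMO2 and the scaffold LDB1, and with the cofactor FOG1, which Zfpm1 encodes. GATA2 keeps progenitors immature and GATA1 replaces it at many sites as red cells mature, a step that cells without GATA1 cannot make. GFI1B, ETO2, which Cbfa2t3 encodes, and RUNX1 bind many of the same elements, the former pair mainly as repressors.

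Some of these genes are themselves known targets of GATA factors, so their promoters were searched for the core GATA motif, written AGATAA or TGATAA or AGATAG or TGATAG, on both strands. RefSeq windows of 300 bases, from 250 before to 50 after a gene start on GRCm38.p6, were at hand for 9 of the 10 genes, with 15 windows in all. The motif was in 4 of the 15 windows (26.7%), and in 29.8% of all 32851 windows of that length. The stretches with a match in Gfi1b (chr2:28622072-28622127, minus strand), Tal1 (chr4:115056196-115056251, plus strand), Cbfa2t3 (chr8:122699197-122699252, minus strand) and Ldb1 (chr19:46037240-46037320, minus strand) are shown because they hold every match found, in capitals, with up to 25 bases on each side, 5′ to 3′ along the gene's strand.
Gfi1b: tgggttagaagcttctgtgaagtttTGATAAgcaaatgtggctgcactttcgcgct
Tal1: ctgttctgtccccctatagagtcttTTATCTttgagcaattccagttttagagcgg
Cbfa2t3: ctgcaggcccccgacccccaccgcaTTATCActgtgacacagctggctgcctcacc
Ldb1: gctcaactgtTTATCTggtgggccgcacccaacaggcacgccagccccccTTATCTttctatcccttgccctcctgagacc

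The match begins 120 bases before the start in Gfi1b, 118 in Cbfa2t3 and 205 in Tal1, and in Ldb1 the matches begin 240 and 200 bases before it. Gfi1b carries the motif on the gene's own strand and the other genes carry its reverse complement. The second Tal1 window, the other windows of Ldb1 and Cbfa2t3, and every window of Gata1, Gata2, Zfpm1, Lyl1 and Runx1 held 0 matches, which says only that these letters are not in these windows. The E-box letters CAGATG or CAGCTG or CAGGTG, the kind of site that TAL1 and LYL1 bind with their E protein partners, were in 6 of the 15 windows (40%) and in 44.3% of all windows. The RUNX letters TGTGGT were in 1 of the 15, the upstream window of Runx1, and in 16.8% of all windows. Both were searched on both strands, and none of their matches overlapped a GATA match.

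The deletion was visible in the targeted transcript. Lockd read 7.80 to 8.04 on the log2 scale on control arrays and 4.17 to 5.15 on deletion arrays. The 7 arrays correlated at 0.993 to 0.996 over all tested probesets, with control replicate 2 the farthest from the others on the leading principal component. Values below are log2 expression values from RMA, a background-corrected and between-array normalized summary of a gene's probes. They compare arrays for the same gene, not genes with each other, because probes differ in brightness and the values are not scaled per length.

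None of the 10 genes passed the test between deletion and control cells. In limma, with Benjamini-Hochberg adjustment over all 23521 probesets with 1 symbol, 0 of the 10 had an adjusted p under 0.05, where 2 of all probesets did (0.0085%), and each of the 10 had an adjusted p of 0.999. Those 2 probesets were of the deleted gene Lockd, at -3.02 (SE 0.23), and of its neighbour Cdkn1b, at -1.14 (SE 0.10). At an unadjusted p under 0.05 there was 1 of the 10, Lmo2, where 4.64% of all probesets were. The groups overlapped for all 10 genes, where they did not overlap for 5.19% of all genes. Of the 10 differences, 5 were below and 5 above 0, with a median of -0.01 beside 0.01 over all genes.

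**Figure D1:**
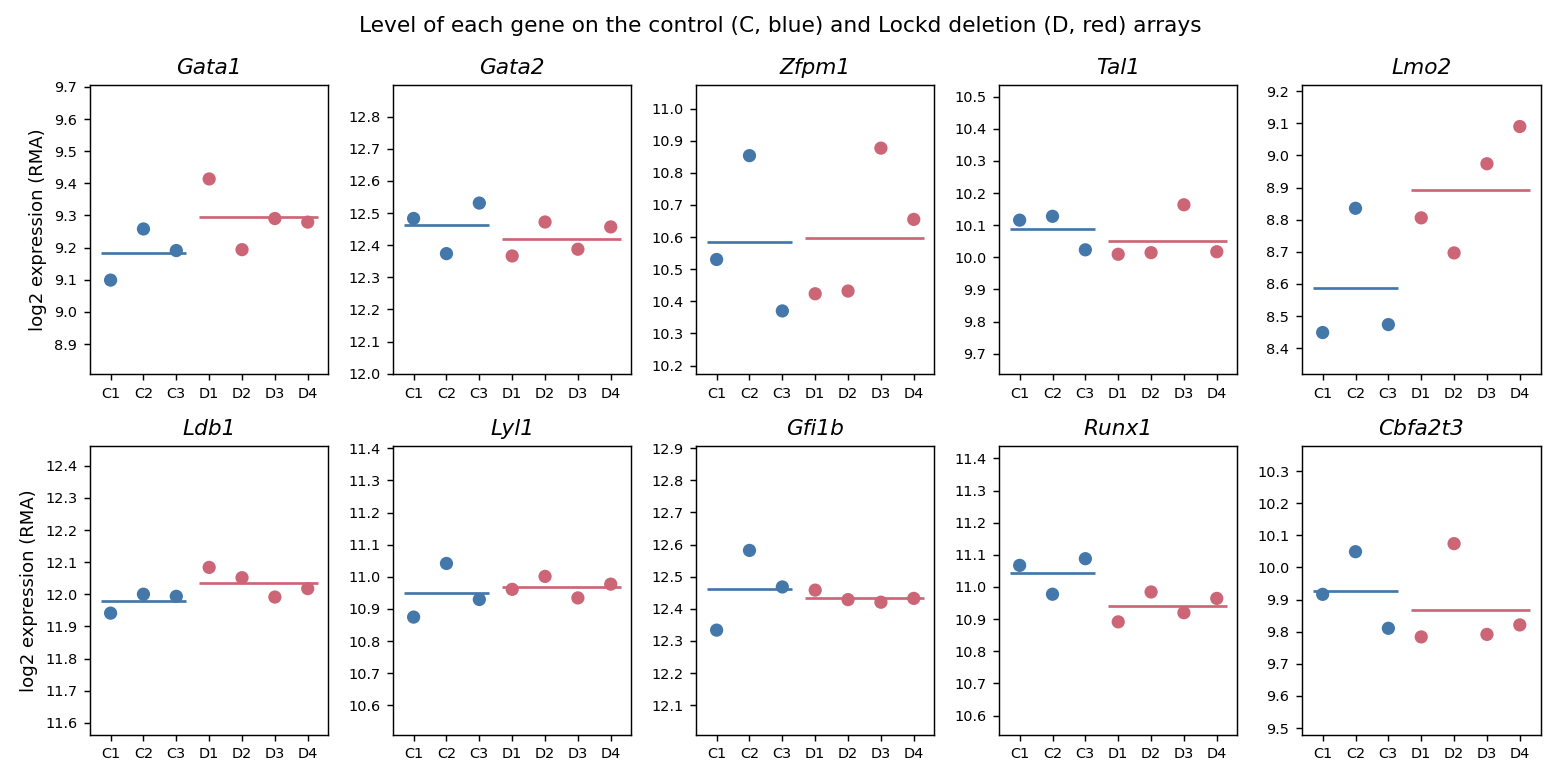
Each panel plots the log2 expression (RMA) of 1 gene on the 3 control arrays (C1 to C3, blue) and the 4 deletion arrays (D1 to D4, red), with a line at each group mean. All panels span the same number of log2 units. The groups overlap in every panel, and Lmo2 and Zfpm1 spread over 0.64 and 0.51 log2 units, the other genes over 0.14 to 0.31.

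Of the GATA factors, Gata1, the master gene of red cell maturation, read 9.10, 9.26 and 9.19 on control replicates 1 to 3 and 9.41, 9.19, 9.29 and 9.28 on deletion replicates 1 to 4. Deletion replicate 1 was the highest of the 7 arrays and control replicate 1 the lowest, and the other 5 arrays lay close together. The difference was 0.11 (SE 0.08, 95% interval -0.06 to 0.29). A Gata1 signal brighter than that of 83.1% of genes was thus read in a line that lacks the protein. The sources used here do not place the array's probes relative to the disrupted part of the gene, so this signal says nothing of a working transcript.

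Gata2, which carries the GATA function of these cells in the absence of GATA1, read 12.48, 12.37 and 12.53 on control arrays and 12.37, 12.47, 12.39 and 12.46 on deletion arrays. Its whole range over 7 arrays was 0.16, and high and low arrays were mixed between the groups. The difference was -0.04 (SE 0.07, 95% interval -0.20 to 0.11), an interval from 12.8% lower to 8.22% higher. Gata2 lies on chromosome 6, as Lockd and Cdkn1b do, and its groups were not told apart by this test.

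The probesets of the other GATA genes gave lower signals, which do not rank the amounts of RNA. Gata3, a factor of T cells, had a control mean of 7.98 ± 0.37 (SD, n = 3) and a deletion mean of 7.70 ± 0.18 (SD, n = 4). Gata4 and Gata5, factors of heart and gut, averaged 6.31 and 5.93 in control cells, near the median level of all genes of 5.72, and Gata6 averaged 4.69, below it. Their differences were -0.28 (SE 0.17) for Gata3, 0.07 (SE 0.14) for Gata4, 0.03 (SE 0.14) for Gata5 and 0.09 (SE 0.15) for Gata6.

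Zfpm1, whose protein FOG1 binds the amino-terminal zinc finger of GATA factors, varied between arrays of the same group. It read 10.53, 10.85 and 10.37 on control arrays and 10.42, 10.43, 10.88 and 10.65 on deletion arrays. Control replicate 2 and deletion replicate 3 were the highest of their groups, and the spread within groups, an SD of 0.25 (n = 3) and 0.22 (n = 4), exceeded that of 88.8% of genes. The difference of 0.01 (SE 0.15, 95% interval -0.32 to 0.34) was small beside this spread. It was -0.09 without control replicate 3 and 0.15 without control replicate 2, so its direction is not settled.

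The same 2 arrays were the highest of their groups in the mean of 36 genes that GATA1 is known to activate, a list that does not hold Zfpm1. That mean read 9.11, 9.26 and 9.16 on control arrays and 9.13, 9.03, 9.28 and 9.08 on deletion arrays. The arrays were singled out after the values of Zfpm1 were seen. Of the 36 genes, 15 (41.7%) had both control replicate 2 and deletion replicate 3 as the highest of their groups, as 11.7% of all genes did. The mean of 17 mast cell and basophil markers read 6.55, 5.99 and 6.41 on control and 6.17, 6.25, 5.92 and 5.88 on deletion arrays, so control replicate 2 was the lowest control array and deletion replicates 3 and 4 the lowest deletion arrays. In bulk RNA, fewer cells of a type and less RNA per cell cannot be told apart, and the part of cell state in the values of Zfpm1 was not tested.

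**Figure D2:**
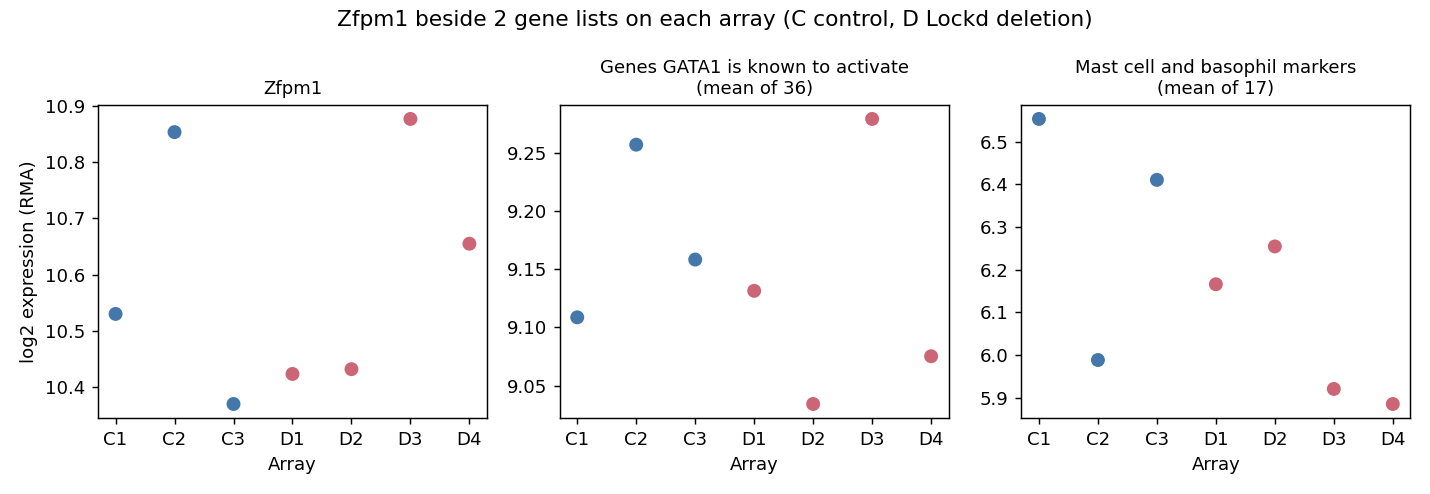
The panels plot, for each of the 3 control (C, blue) and 4 deletion (D, red) arrays, the log2 level of Zfpm1, the mean log2 level of 36 genes that GATA1 is known to activate, and the mean of 17 mast cell and basophil markers, each on its own scale. C2 and D3 are the highest arrays of their groups for Zfpm1, at 10.85 and 10.88, and for the activated genes, at 9.26 and 9.28.

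The helix-loop-helix factors were close to equal in the groups. Tal1, which is needed for all blood formation, read 10.12, 10.13 and 10.02 on control arrays and 10.01, 10.01, 10.16 and 10.02 on deletion arrays. Deletion replicate 3 stood above all other arrays, and the rest of the deletion arrays lay just below the lowest control array. The difference was -0.04 (SE 0.07, 95% interval -0.20 to 0.12), and -0.08 without deletion replicate 3.

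Lyl1, a close relative of Tal1 that can stand in for it in adult blood stem cells, read 10.87, 11.04 and 10.93 on control arrays and 10.96, 11.001, 10.93 and 10.98 on deletion arrays. All 4 deletion arrays fell between the lowest and the highest control array. The difference was 0.02 (SE 0.07, 95% interval -0.13 to 0.17).

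Their E protein partners, which form the dimers that bind DNA, were all measured. Tcf3 had means of 11.58 in control and 11.56 in deletion cells, Tcf12 averaged 10.81 and 10.85, and Tcf4 averaged 8.99 and 8.97. The Id genes, whose products hold E proteins away from DNA, differed by 0.04 (SE 0.12) for Id1, 0.02 (SE 0.07) for Id2, 0.12 (SE 0.12) for Id3 and 0.15 (SE 0.18) for Id4. None of these 7 genes passed the test.

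Lmo2, the LIM-only protein that links TAL1 to the GATA factor, had the largest difference of the 10 genes. It read 8.45, 8.84 and 8.47 on control arrays and 8.81, 8.70, 8.97 and 9.09 on deletion arrays. All 4 deletion arrays lay above control replicates 1 and 3, while control replicate 2 lay above deletion replicates 1 and 2, so the groups overlapped. The control mean was 8.59 ± 0.22 (SD, n = 3) and the deletion mean 8.89 ± 0.17 (SD, n = 4). They differed by 0.31 (SE 0.13, 95% interval 0.02 to 0.59), or 23.6% higher with an interval from 1.15% to 51.0%.

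The unadjusted p of Lmo2 was 0.0406 in limma and its adjusted p 0.999, so it did not pass. The difference was above 0 in each fit tried, from 0.10 with the description number as a block to 0.43 without control replicate 2. The unadjusted p was above 0.05 without control replicate 1 (0.141) or 3 (0.128) and without deletion replicate 3 (0.0878) or 4 (0.101). Lmo2 was also the dimmest of the 10 probesets, brighter than 78.4% of genes, and its spread within groups was larger than that of 80.4% of genes.

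Ldb1, the scaffold that joins distant elements into loops, was the steadiest of the 10 genes. It read 11.94, 12.0003 and 11.99 on control arrays and 12.08, 12.05, 11.99 and 12.02 on deletion arrays. Deletion replicates 1, 2 and 4 lay above every control array, and deletion replicate 3 lay below control replicates 2 and 3. The difference was 0.06 (SE 0.06, 95% interval -0.08 to 0.20), an interval from 5.45% lower to 14.6% higher. The genes for its stabilising partners of the SSBP family differed by 0.07 (SE 0.10) for Ssbp2, -0.01 (SE 0.06) for Ssbp3 and 0.02 (SE 0.08) for Ssbp4. Rlim, whose product marks LDB1 for degradation, averaged 10.48 and 10.46.

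**Figure D3:**
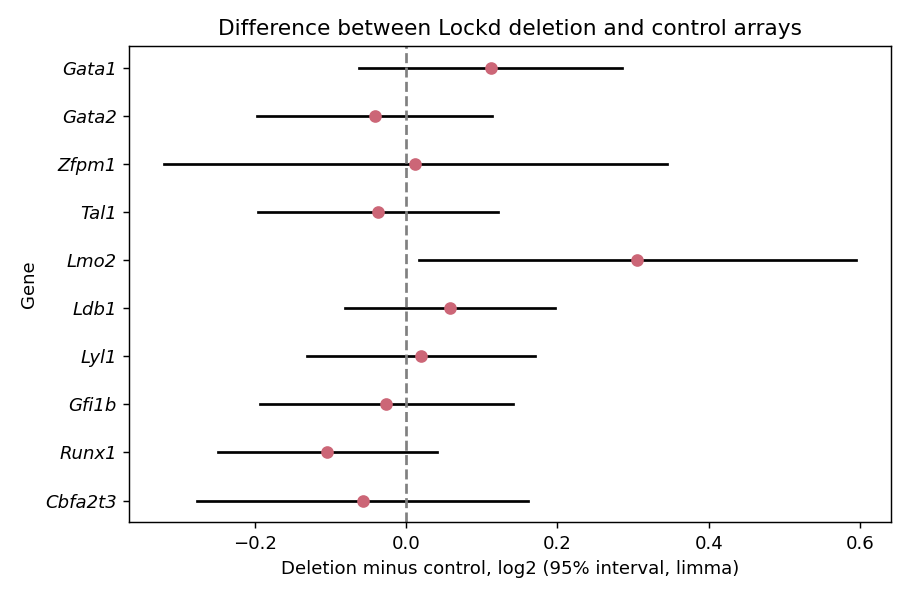
Points give the difference between deletion and control arrays in log2 units for each of the 10 genes, and bars its 95% interval from limma. The intervals of 9 genes include 0, that of Lmo2 runs from 0.02 to 0.59 before any adjustment, and the widest belongs to Zfpm1.

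The repressor genes showed no shift past the test. Gfi1b, a zinc finger repressor needed for red cells and platelets, read 12.33, 12.58 and 12.47 on control arrays and 12.46, 12.43, 12.42 and 12.43 on deletion arrays. The deletion arrays, from 12.42 to 12.46, lay between control replicates 1 and 2, which were the lowest and highest of all 7. The difference was -0.03 (SE 0.07, 95% interval -0.19 to 0.14), and it was -0.09 without control replicate 1 and 0.03 without control replicate 2.

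Cbfa2t3, the ETO2 corepressor gene, read 9.92, 10.05 and 9.81 on control arrays and 9.78, 10.07, 9.79 and 9.82 on deletion arrays. Deletion replicate 2 was the highest of all arrays, and the other 3 deletion arrays were near or below the lowest control array. The difference was -0.06 (SE 0.10, 95% interval -0.28 to 0.16), and -0.13 without deletion replicate 2. Its relatives Cbfa2t2 and Runx1t1 differed by -0.03 (SE 0.09) and -0.08 (SE 0.10).

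Runx1, the core binding factor that starts definitive blood formation, was lower in deletion cells on average without passing. It read 11.07, 10.98 and 11.09 on control arrays and 10.89, 10.98, 10.92 and 10.96 on deletion arrays. Deletion replicates 1, 3 and 4 lay below every control array, and deletion replicate 2 lay just above control replicate 2. The difference was -0.10 (SE 0.06, 95% interval -0.25 to 0.04), with an unadjusted p of 0.138 in limma. Over the 15 alternative fits in limma this p ran from 0.0331 to 0.521. The lowest came from a trended and robust variance model, where the adjusted p was 0.999. Group accounted for 60.3% of its variance over the 7 arrays, the largest share of the 10 genes. This share was computed outside limma, and none over all genes is given beside it. The spread of Runx1 within groups was larger than that of only 6.53% of genes. Cbfb, its partner subunit, averaged 9.70 and 9.65, and Runx3 averaged 5.80 and 5.75.

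Much of the variation in these genes lay within groups and on named arrays. Control replicate 2 was the highest control array for 8 of the 10 genes, as it was for 35.7% of all genes, and the lowest for the other 2, Gata2 and Runx1. Leaving this array out therefore narrows the control range for each of the 10, but not for every gene. The share over all genes is then not a like comparison. Without it the groups no longer overlapped for 5 of the 10, with Gata1, Lmo2 and Lyl1 higher and Gata2 and Runx1 lower in deletion cells, where this held for 14.3% of all genes. Their differences were then 0.15, 0.43, 0.07, -0.09 and -0.14. Lmo2 had its largest difference and its smallest unadjusted p of the fits tried here, 0.00637 with an adjusted p of 0.938, and 0 of the 10 passed in limma. Without control replicate 1 the groups did not overlap for 1 of the 10, Gfi1b (12% of all genes). Without deletion replicate 2 this held for Gata1 and Runx1 (9.78% of all genes), and without deletion replicate 3 for Ldb1 and Tal1 (9.02%). It held for 0 of the 10 without control replicate 3 (15% of all genes), deletion replicate 1 (8.56%) or deletion replicate 4 (8.09%).

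**Figure D4:**
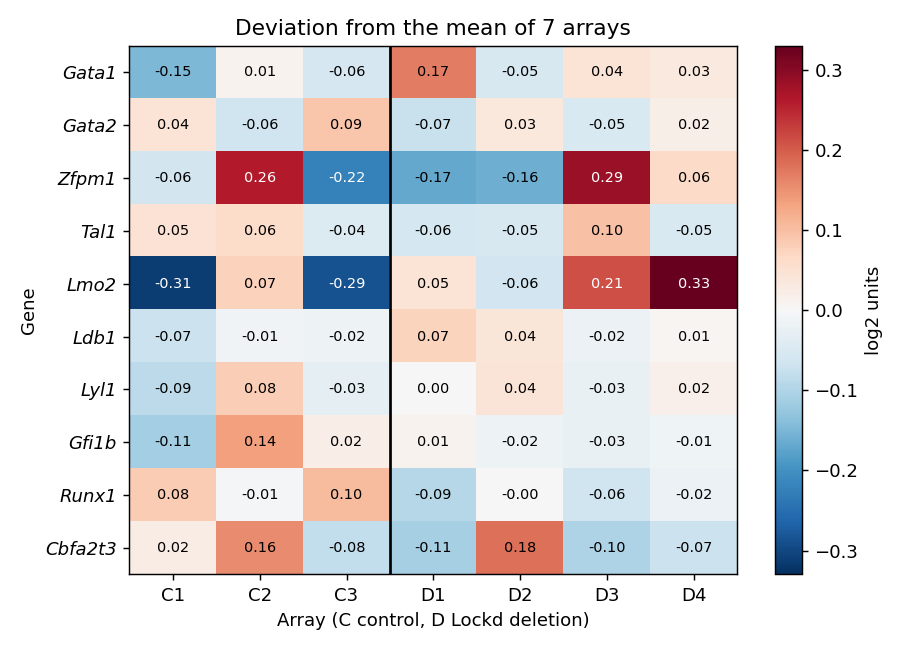
Each cell gives a gene's deviation from its own mean over the 7 arrays, in log2 units, with control arrays (C) left and deletion arrays (D) right of the line. Lmo2 ranges from -0.31 on C1 to 0.33 on D4 and Zfpm1 is highest on C2 and D3, while Ldb1 stays between -0.07 and 0.07.

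The genes whose pattern over the 7 arrays was most like that of Gata2, among 11089 genes above the median level, were Pdpn (Pearson r = 0.968), Arpc2 (0.958) and Sncb (0.957). Those most like Lmo2, which had the largest SD of the 10 genes, were Tmem106c (0.983), Eif1ad (0.959) and Dtl (0.948). These are the highest of 11089 values on only 7 arrays, and the points share their arrays. An r above 0.9 was found for 29 genes with Gata2 and 42 with Lmo2. Tmem106c differed by 0.13 (SE 0.08) between the groups and Pdpn by -0.07 (SE 0.09).

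Genes around the 10 were grouped by role. Among 14 measured paralogs 0 passed in limma and 0 had an unadjusted p under 0.05, with a median difference of 0.05. Ldb2 differed by -0.14 (SE 0.08), Zfpm2 by 0.13 (SE 0.08), Gfi1 by 0.15 (SE 0.10) and Lmo4, which competes for LDB1, by 0.13 (SE 0.12). Of the paralogs, 7 were brighter than the median gene, as were all 10 of the genes described here.

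Among 18 direct partners 0 passed and 0 had an unadjusted p under 0.05, with a median of 0.02. Klf1, the erythroid Krüppel-like factor, and Myb, a progenitor factor, had control means of 10.52 and 12.16 and deletion means of 10.51 and 12.16. Spi1, whose product PU.1 opposes GATA1, differed by 0.02 (SE 0.08), Sp1 by 0.09 (SE 0.07) and Fli1, an ETS factor of platelet precursors, by 0.14 (SE 0.10). Erg, a stem cell ETS factor, went from a mean of 7.58 ± 0.78 (SD, n = 3) in control to 6.84 ± 0.66 (SD, n = 4) in deletion cells. It differed by -0.75 (SE 0.42), with an unadjusted p of 0.112 in limma.

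Among 28 measured corepressors and coactivators 0 passed and 1 (3.57%) had an unadjusted p under 0.05, where 4.64% of all probesets did. That gene was Rcor2, a CoREST subunit that pairs with the demethylase LSD1, a complex that GFI1B recruits. Control arrays read 8.18 to 8.47 and deletion arrays 7.76 to 8.09, so the groups did not overlap, as held for 5.19% of all genes. The difference was -0.43 (SE 0.10), with an unadjusted p of 0.00296 and an adjusted p of 0.999 in limma. Rcor1, the other main CoREST subunit, differed by 0.13 (SE 0.08), and Hdac2, a histone deacetylase of the same complex, by 0.11 (SE 0.06). The groups of Hdac2 did not overlap either, in the other direction, with control arrays at 10.36 to 10.48 and deletion arrays at 10.49 to 10.58. The list's median was 0.01.

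Among 36 measured genes that GATA1 is known to activate 0 passed, and 4 (11.1%) had an unadjusted p under 0.05, where 4.64% of all probesets did, 3 lower and 1 higher. The lower genes were Add2, a red cell skeleton gene, at -0.44 (SE 0.12), the transferrin receptor gene Tfrc at -0.17 (SE 0.06) and the blood group gene Kel at -0.32 (SE 0.12). The higher gene was Trim58, a ubiquitin ligase gene of late red cells, at 0.22 (SE 0.09). Its mean of 5.44 over the 7 arrays lay below the median level of all genes. The list's median was -0.03, with 23 of 36 (63.9%) below 0, where 47.8% of all genes were, and its mean on control arrays (9.11 to 9.26) overlapped that on deletion arrays (9.03 to 9.28).

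Among 18 genes that GATA1 is known to repress 0 passed and 0 had an unadjusted p under 0.05, with a median of 0.01. Bmi1, a Polycomb gene, differed by -0.15 (SE 0.07), Itpkb by 0.28 (SE 0.15) and Rgs18 by -0.41 (SE 0.23). Kit, the stem cell factor receptor gene and a GATA2 target, differed by -0.07 (SE 0.07), Myc by -0.06 (SE 0.10) and Hhex by 0.01 (SE 0.12). Over the 5 lists, without the 10 genes and with each gene counted 1 time, 0 of 97 passed and 5 (5.15%) had an unadjusted p under 0.05, a share near the 4.64% of all probesets. Of these 5, 4 were lower and 1 was higher, and of all genes at such a p 526 were lower and 496 higher.

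**Figure D5:**
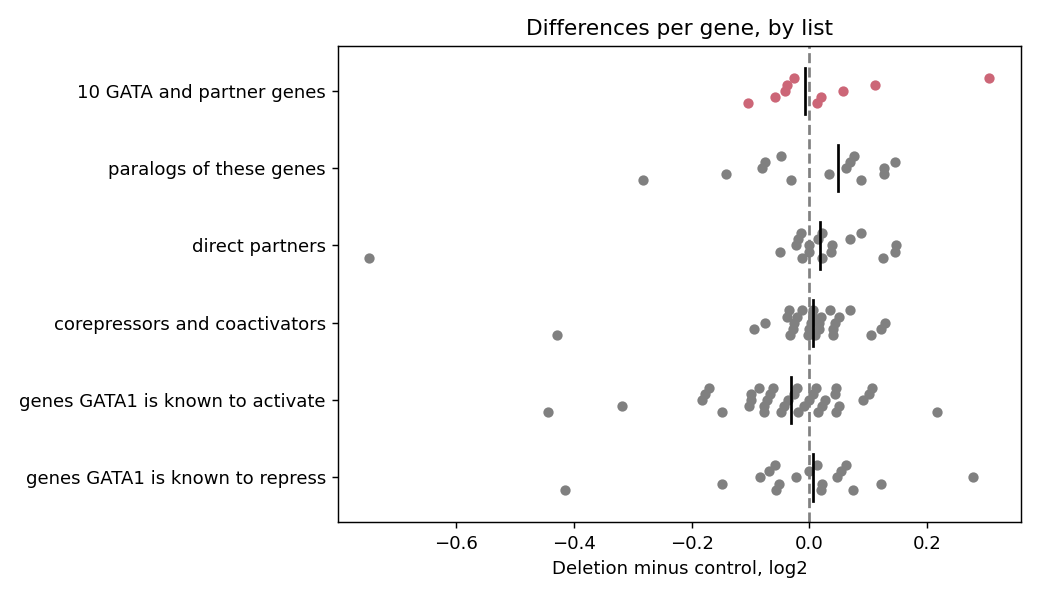
Each point is the difference between deletion and control arrays in log2 units for 1 gene, by list, with a black bar at the list's median. The medians lie between -0.03 and 0.05, and the points farthest from 0 are Erg at -0.75, Add2 at -0.44 and Rcor2 at -0.43, none of which passed the test.

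Markers of other lineages were read beside these genes, since GATA2 also serves mast cells and platelets. Mean levels on control and deletion arrays were 5.99 to 6.55 and 5.88 to 6.25 for 17 mast cell and basophil markers, and 5.64 to 5.88 and 5.76 to 5.88 for 11 megakaryocyte markers. They were 4.73 to 4.85 and 4.72 to 4.86 for 15 myeloid markers, 4.77 to 4.81 and 4.74 to 4.80 for 12 lymphoid markers and 5.44 to 5.75 and 5.64 to 5.76 for 14 stromal and endothelial markers. The groups overlapped in each of the 5 means, and 0 markers passed in limma. RMA gives no 0 and no detection call, so a low mean is not read as absence.

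An unadjusted p under 0.05, which 4.64% of all probesets had, was found for 2 of 17 mast cell and basophil, 2 of 11 megakaryocyte, 1 of 15 myeloid, 1 of 12 lymphoid and 1 of 14 stromal and endothelial markers. The brightest of them were Tph1, which makes serotonin in mast cells, at -2.03 (SE 0.29, adjusted p 0.516 in limma) and the platelet gene Gp9 at -0.33 (SE 0.11). The others were Gzmb, Treml1, Mpo, Rag2 and Tagln, and the remaining genes named below had a larger p. Gzmb, Rag2 and Ly86 were dim, with means of 4.29, 3.79 and 3.61 over the 7 arrays. Tpsab1, Itgb3, Mpo, Ctsg, Cd79a, Cd4, Tagln and Cldn5 also averaged below the median level of all genes, 5.72. The mast cell protease genes Gzmb and Tpsab1 differed by -0.39 (SE 0.12) and -0.21 (SE 0.09), and the platelet genes Treml1 and Itgb3 by 0.27 (SE 0.12) and -0.18 (SE 0.08). The myeloid genes Mpo, Ly86 and Ctsg differed by 0.24 (SE 0.08), 0.21 (SE 0.11) and -0.19 (SE 0.10). The lymphoid genes Rag2, Cd79a and Cd4 differed by -0.24 (SE 0.08), -0.18 (SE 0.12) and -0.13 (SE 0.10). Tagln, Cldn5 and Col1a2, of stromal and endothelial cells, differed by 0.27 (SE 0.10), 0.17 (SE 0.09) and 0.21 (SE 0.12). The genes named are the 3 of each list with the smallest p and do not stand for their lists. Differences below 0 were found for 12 of 17 mast cell and basophil (70.6%), 4 of 11 megakaryocyte (36.4%) and 7 of 15 myeloid markers (46.7%). The same held for 6 of 12 lymphoid (50%) and 4 of 14 stromal and endothelial markers (28.6%), beside 47.8% of all genes. Stromal and endothelial differences ran from -0.44 to 0.27.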

How the data were processed

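Total RNA of cultured cells was labelled with biotin and read on 7 Affymetrix Mouse Gene 2.0 ST arrays. Per the submitters' processing notes, the authors ran RMA in Expression Console of Affymetrix, and the deposited numbers are on the log2 scale, as their range shows. The sources used here name no software version, library file or genome build. Groups and replicate numbers came from the titles. The platform annotation gave exactly 1 symbol for 23521 of 41345 probesets, and a gene with several is represented by the brightest over all 7 arrays.

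Control was subtracted from deletion with limma 3.58.1 in R 4.3.3 (lmFit and eBayes, 1 fit, two-sided, no covariate, Benjamini-Hochberg over all 23521 probesets, threshold 0.05, 95% intervals). The fit was tested on simulated data. Named were the 10 genes, the 3 of each list with the smallest p, paralogs above the median level, and the 3 genes most like Gata2 and most like the member with the largest SD. Other genes, such as Tcf3, Klf1, Kit and Trim58, were picked once their values were known. The genes and lists were chosen with earlier results of these data known. Alternatives changed the probesets tested, variance model, array weights, normalization, replicate block, probeset of a gene and arrays. The number of arrays limits the precision. RefSeq promoter windows are of GRCm38.p6.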

Additional observations from a re-analysis of the deposited data

Results flagged for a closer look

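A deletion array stood far from the other 3 deletion arrays for 3 of 46 genes, by Dixon's gap over range against a limit of 0.829. About 1 in 20 groups of 4 pass this limit by chance. The 46 are the 10 genes and the list genes named by smallest p or as paralogs above the median level. Other genes named in the text were not checked, such as Lockd, which read 4.17 on deletion replicate 3 and 5.09 to 5.15 on the others. Tal1 read 10.16 on deletion replicate 3 and 10.01 to 10.02 on the others. Cbfa2t3 read 10.07 on deletion replicate 2 and 9.78 to 9.82 on the others. Gata5, a dim paralog, read 6.17 on deletion replicate 1 and 5.88 to 5.91 on the others. Control groups of 3 arrays were not examined this way.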

How the results depend on the processing

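Of 150 refitted differences of the 10 genes, over 15 alternatives each, 11 changed direction and 0 passed in limma. Alternatives that changed only the probesets tested, the variance model or the probeset of a gene returned the main differences and could not change direction. The title number block gave the same differences as leaving out deletion replicate 4. The 11 of 150 is thus not a measure of stability. The count of the 10 genes past the threshold was 0 under every alternative listed, as was that of the 97 pathway genes. The count at an unadjusted p under 0.05 was 1 with all arrays, 0 with all probesets tested and 2, Lmo2 and Runx1, with a trended and robust variance model. Leaving out each array gave 0 to 1 for this count, 0 to 5 for genes whose groups did not overlap, and -0.026 to 0.050 for the median difference, the highest without control replicate 2. With the title number as a replicate block the count at an unadjusted p under 0.05 was 0, and Zfpm1 differed by -0.0071. With the description number as a replicate block it was 0, Zfpm1 differed by -0.18 and Lyl1 by -0.0043. Same-numbered arrays did not deviate together, at r = 0.025, 0.062 and -0.10 over genes for title numbers 1 to 3. By the description number, control replicate 2 with deletion replicate 1 gave -0.17, and control replicate 3 with deletion replicate 2 gave -0.10. Arrays that share neither number gave -0.080 to 0.17. Neither numbering is stated to pair arrays, and neither is read as pairs. Whether same-numbered arrays were handled together was not tested. Array weights put Gfi1b at 0.017. Leaving out each array gave -0.095 to 0.147 for Zfpm1, -0.017 to 0.066 for Lyl1, -0.090 to 0.034 for Gfi1b and -0.13 to 0.0042 for Cbfa2t3. The cause of these changes was not tested. Arrays number 3 against 4, which limits the precision, and no detection call marks dim signals.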

Other observations

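Genes of red cell maturation varied between arrays of the same group alongside Zfpm1. Apart from Hba-x, which goes the other way, the genes named here were chosen from the 15 after their values were seen, from lists made earlier. Slc4a1, the band 3 anion exchanger gene, read 8.67 on control replicate 2 and 7.48 and 8.34 on the other control arrays. On deletion replicate 3 it read 8.84, with 7.996, 7.40 and 8.11 on the others. Alad, a heme synthesis gene, read 11.23 and 11.25 on those 2 arrays and 10.76 to 11.06 on the other 5. Hbb-bh1, an embryonic globin gene with a mean below the median level of all genes, read 5.70 and 5.61 on them and 4.81 to 5.25 on the other 5. Slc25a37, the mitochondrial iron importer gene, read 9.91 and 9.87 on them and 9.38 to 9.66 elsewhere.

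Some mast cell genes were low on the same 2 arrays. Ms4a2, the beta chain of the high-affinity IgE receptor, read 7.55 on control replicate 2 and 8.07 on deletion replicate 3, and 8.81 to 10.05 on the other 5 arrays. Rgs13 read 7.31 and 6.94 on them and 7.53 to 9.34 on the other 5. Gata2 read 12.37 and 12.39 on these arrays, near its lowest value, 12.37 on deletion replicate 1. Cpa3, a bright mast cell gene, was lowest of the control arrays on control replicate 2, at 9.53. On deletion replicate 3 it read 10.46, inside its deletion range of 9.88 to 11.48. Of the 17 mast cell and basophil markers, 4 (23.5%) had both arrays as the lowest of their groups, as 12.4% of all genes did, and 2 (11.8%), Tpsab1 and Mcpt4, had both as the highest, as 11.7% of all genes did.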
